A study of Mus musculus with 12 samples.

Results

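The genes described here run mitosis, the step at which a cell parts its copied chromosomes, together with the kinesin motor family and the cyclins. They were taken from the deposited count table by name: every kinesin, centromere protein, Aurora, Bub, Polo-like kinase, A, B, D or E cyclin and Cdc25 gene, plus a short list of single mitotic genes. Of the 13404 rows held there, 64 matched these names, and the 56 with a summed count of at least 120 over the 12 libraries are the members. Kif17, with a summed count of 149, was just inside that limit, and Kif26b, with 43, was just outside it. All 56 passed the filter on low counts and were among the 9495 genes tested.

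RNA was sequenced from 2 kinds of CD4 T cell sorted from the spleen of C57BL/6 mice: regulatory T cells (Treg, CD4+CD25+), which hold immune responses in check, and conventional CD4+ cells (Tconv). Each came from mice of 2 months labelled Dcaf1-deficient, from wild-type mice older than 18 months (aged) and from wild-type mice of 2 months (young), with 2 libraries in each of the 6 groups. DCAF1 is the substrate receptor of a CUL4 ubiquitin ligase. The promoter or cell type that drove the deletion, the deleted exons and any pooling of animals are not given in the sources used here. The labels do not say whether the 2 libraries of a group came from different animals. P-values therefore measure the spread between these libraries.

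Progress through the cell cycle is driven by cyclins, which switch on cyclin-dependent kinases in turn: D cyclins in early G1, E cyclins at the entry to DNA replication, and A and B cyclins with CDK1 at mitosis. At mitosis centromere proteins build the kinetochore, mitotic kinesins move and shape the spindle, and the spindle checkpoint holds back anaphase until every chromosome is attached. Naive T cells rest outside the cycle and hold little of this RNA until they are stimulated, whereas most other kinesins carry cargo along microtubules at all times.

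The members were sorted by role. A core of 23 acts in mitosis itself: Top2a (topoisomerase II, which untangles chromosomes), Cdk1, the cyclins Ccna2 and Ccnb1, Birc5 (survivin, of the chromosomal passenger complex), the checkpoint kinases Bub1 and Bub1b, the anaphase activator Cdc20, centromere and outer kinetochore proteins, 5 mitotic kinesins and 5 spindle and cytokinesis genes. The other 33 include 14 transport and other kinesins, 5 G1 cyclins, further centromere proteins, the Cdc25 phosphatases Cdc25a and Cdc25b and the stress-responsive kinase Plk3. Aurkaip1 (a partner of Aurora A) and Kifap3 (a kinesin-associated protein) matched by prefix only. Mki67, Ccnb2, Aurkb and Plk1 were not analysed here.

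Many mitotic promoters hold a cell cycle genes homology region, TTTGAA or TTCGAA, near a CCAAT box, the pair through which repressor and activator complexes hold the genes silent in resting cells and open them in late cycle. RefSeq promoters (GRCm38.p6, 250 bases before to 50 after each annotated start) were matched by symbol for 47 of the 56 members, 21 of them in the core. The 3 core promoters below and that of Kif1c, a transport kinesin, are shown to set the contrast between the classes before their RNA levels are compared. Capitals mark the homology region and the CCAAT box on either strand. A TTCGAA reads the same on both strands and was counted once, and overlapping matches were each counted.
Cdc20, chr4:118437294-118437593, minus strand: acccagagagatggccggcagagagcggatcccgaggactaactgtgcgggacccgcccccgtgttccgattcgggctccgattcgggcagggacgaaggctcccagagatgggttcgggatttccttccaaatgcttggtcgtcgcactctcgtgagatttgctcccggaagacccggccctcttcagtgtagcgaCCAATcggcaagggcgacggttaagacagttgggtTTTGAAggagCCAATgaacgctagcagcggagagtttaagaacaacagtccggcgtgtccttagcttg
Cdk1, chr10:69352863-69353162, minus strand: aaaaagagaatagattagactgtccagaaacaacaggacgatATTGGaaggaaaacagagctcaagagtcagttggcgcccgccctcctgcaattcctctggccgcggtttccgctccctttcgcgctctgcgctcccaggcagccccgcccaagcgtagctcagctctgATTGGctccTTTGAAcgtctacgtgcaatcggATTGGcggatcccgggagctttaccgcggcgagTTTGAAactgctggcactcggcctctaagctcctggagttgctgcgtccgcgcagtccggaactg
Top2a, chr11:99024140-99024439, minus strand: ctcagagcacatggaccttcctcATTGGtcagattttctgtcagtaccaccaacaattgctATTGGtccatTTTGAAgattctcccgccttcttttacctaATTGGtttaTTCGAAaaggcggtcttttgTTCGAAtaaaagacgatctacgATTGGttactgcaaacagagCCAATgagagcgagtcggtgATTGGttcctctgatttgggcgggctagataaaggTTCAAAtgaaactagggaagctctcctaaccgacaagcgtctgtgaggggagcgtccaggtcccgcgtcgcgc
Kif1c, chr11:70700298-70700597, plus strand: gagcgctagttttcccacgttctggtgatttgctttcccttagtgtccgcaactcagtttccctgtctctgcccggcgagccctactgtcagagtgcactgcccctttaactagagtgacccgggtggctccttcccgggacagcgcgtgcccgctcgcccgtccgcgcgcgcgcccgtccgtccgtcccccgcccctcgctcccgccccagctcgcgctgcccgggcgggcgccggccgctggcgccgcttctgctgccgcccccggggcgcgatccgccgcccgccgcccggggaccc
In Cdc20 the TTTGAA lies 18 to 13 bases before the start, and in Cdk1 the nearer of 2 lies 15 to 10 bases before it. Of the 23 core promoters 17 held the homology region (73.9%), against 1 of 15 promoters of transport and other kinesins (6.67%) and 19.2% of all 32851 promoters. CCAAT was in 78.3% of the core promoters, 26.7% of the transport kinesin promoters and 37.4% of all. Both motifs stood in 69.6% of the core promoters, 0% of the transport kinesin promoters and 7.52% of all promoters. These matches are a description of the sequence and were not tested against the RNA.

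Depth ranged from 18358477 to 26852448 estimated counts per library. The libraries labelled Dcaf1-deficient could not be checked by the targeted gene, since counts over the whole gene do not show an exon deletion. Dcaf1 (named Vprbp in the table) was at 102 and 101 CPM in Treg labelled Dcaf1-deficient, 105 and 127 CPM in aged Treg and 144 and 128 CPM in young Treg. Among Tconv it was at 132 and 132 CPM in those labelled Dcaf1-deficient, 117 and 90.5 CPM in the aged and 147 and 144 CPM in the young. CPM are counts scaled to a common library size, the TMM-scaled total. Foxp3, which marks Treg, was at 625 and 535 CPM in Treg labelled Dcaf1-deficient, 746 and 1986 CPM in aged Treg and 1428 and 812 CPM in young Treg. In Tconv it was at 80.8 and 75.6 CPM in the libraries labelled Dcaf1-deficient and 47.7 and 78.4 CPM in young Tconv, but at 334 and 675 CPM in aged Tconv, where its part in the results was not tested. T cell and Treg markers were present throughout, with Cd3e at 191 to 692 CPM over the 6 Treg libraries. Aged Treg 1 and young Treg 2 stand apart from the other library of their group, and over all genes aged Treg 1 was closer to the library labelled Dcaf1-deficient Treg 1 than to any other. For that pair the median squared difference per gene was 5.18 times that expected of counting noise. It was 8.93 times between the 2 Treg libraries labelled Dcaf1-deficient and 63.7 times between the 2 aged Treg libraries. Whether the label of aged Treg 1 is right could not be checked. Aged Treg 1 and young Treg 2 both carried more transcripts of macrophages, B cells and red cell precursors than their partner. Titles carry a tag of unstated meaning. L3 marks aged Treg 2 and aged Tconv 2, L5 marks both Tconv labelled Dcaf1-deficient, aged Tconv 1 and young Tconv 2, and L4 marks all others. Both L3 libraries, Treg 2 labelled Dcaf1-deficient and both Tconv labelled Dcaf1-deficient held Xist, a transcript of female cells, above 100 CPM. Xist was at 2.38 and 2018 CPM in aged Treg, 1.37 and 1658 CPM in Treg labelled Dcaf1-deficient and 2.94 and 1263 CPM in aged Tconv. In each of these groups the 2 libraries therefore came from different animals.

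The core set the libraries in a clear order. Its mean log2 CPM was 6.05 and 5.92 in Treg labelled Dcaf1-deficient, 5.91 and 4.37 in aged Treg and 3.33 and 4.50 in young Treg. In Tconv it was 5.29 and 5.35 in the libraries labelled Dcaf1-deficient, 3.28 and 4.91 in aged Tconv, and 2.69 and 3.63 in young Tconv. The libraries labelled Dcaf1-deficient lay above both young libraries of their cell type with little spread of their own, whereas the aged groups each held a high and a low library. The 14 transport and other kinesins spanned only 4.10 to 4.95 on the same scale. In bulk RNA, more cells in division and more of these transcripts per cell cannot be told apart.

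**Figure D1:**
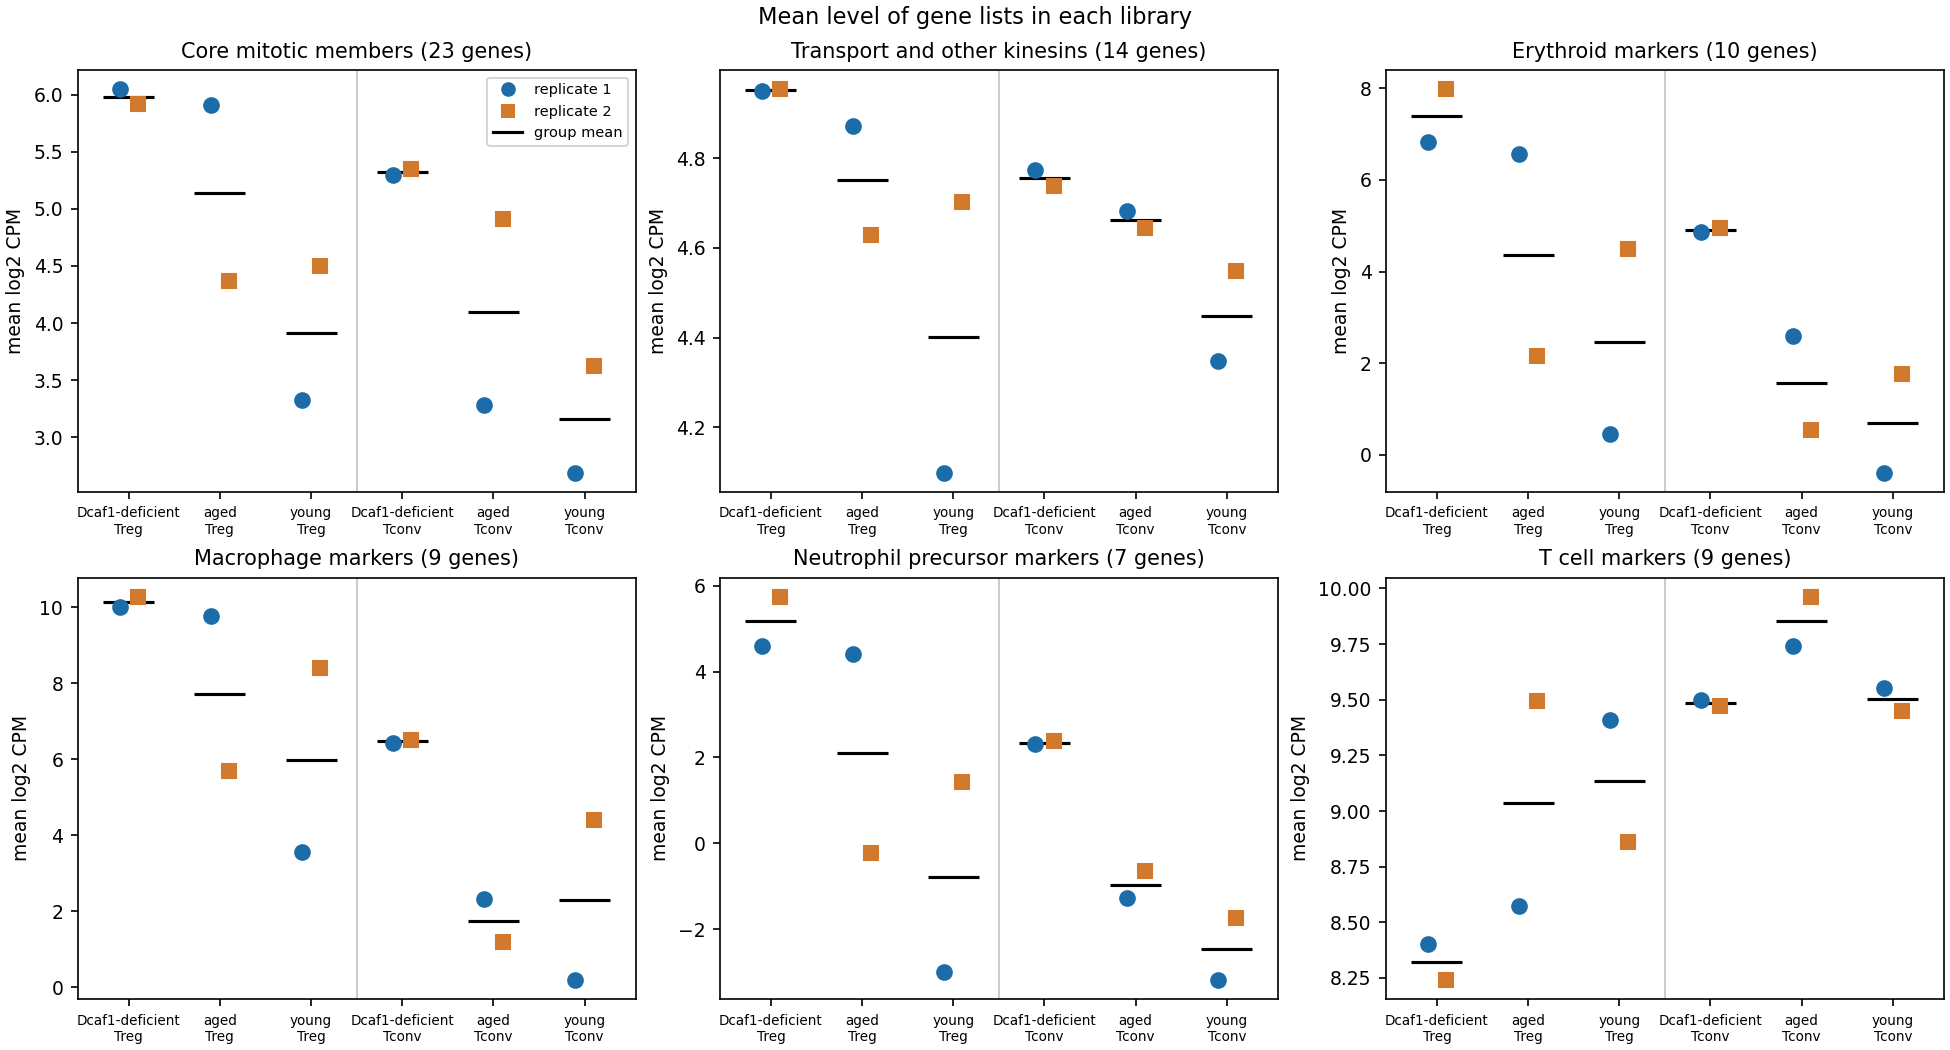
Mean log2 CPM of 6 gene lists (y axis) in the 12 libraries, by group (x axis; circles replicate 1, squares replicate 2, bars the group mean of 2 libraries). The core mitotic mean is at 6.05 and 5.92 in Treg labelled Dcaf1-deficient and at 3.33 and 4.50 in young Treg, and the erythroid, macrophage and neutrophil precursor means are also highest in Treg labelled Dcaf1-deficient, where the T cell mean is lowest.

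The study's title asks how DCAF1 bears on Treg ageing, and Treg labelled Dcaf1-deficient are set here against young Treg. At the edgeR threshold 0 of the 56 members were called, as were 0 of all 9495 genes (0%), while 35 members had an unadjusted p under 0.05, against 24.8% of all genes. DESeq2 called 24 members higher and 1 lower, against 6.87% and 6.95% of all genes, and limma on the authors' log2 values called 0. Both libraries lay above both young libraries in 43 members, against 35.2% of all genes, and in all 23 core members. Both lay below in 6 members, against 36.9% of all genes. The median log2 fold change was 2.05 over the core and 1.19 over all 56 members, beside -0.01 over all genes tested.

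Among the drivers of mitosis, Cdk1, the kinase that starts it, was at 81.0 and 69.6 CPM in Treg labelled Dcaf1-deficient, against 8.15 and 23.1 CPM in young Treg. The groups did not overlap, and the log2 fold change was 2.27 (SE 0.92, adjusted p 0.182 by edgeR, DESeq2 adjusted p 0.047). Ccnb1, the B cyclin that activates it, was at 81.7 and 74.5 CPM, against 5.79 and 19.7 CPM in young Treg. At a log2 fold change of 2.61 (SE 1.08, adjusted p 0.189 by edgeR) it had the largest estimate of all members. Ccna2, the A cyclin of DNA replication and early mitosis, followed at 2.60 (SE 0.93, adjusted p 0.161 by edgeR), with 131 and 125 CPM in Treg labelled Dcaf1-deficient and 11.5 and 30.7 CPM in young Treg. Among these genes the spread lay in the young libraries, young Treg 2 being the higher in each.

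The phosphatases that activate the kinases differed by less. Cdc25a, which acts at the start of replication, was at 52.0 and 44.8 CPM, against 32.2 and 36.9 CPM in young Treg (log2 fold change 0.49 ± 0.18 SE, adjusted p 0.17 by edgeR). Cdc25b was at 200 and 167 CPM, against 103 and 111 CPM in young Treg. Neither gene overlapped between the groups and neither passed DESeq2.

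On the chromosomes, Top2a was at 504 and 406 CPM in Treg labelled Dcaf1-deficient, against 63.5 and 157 CPM in young Treg. Its log2 fold change was 2.05 (SE 0.70, adjusted p 0.153 by edgeR, DESeq2 adjusted p 0.019). Birc5 was at 125 and 109 CPM, against 12.5 and 28.3 CPM in young Treg, a log2 fold change of 2.52 (SE 0.80, adjusted p 0.144 by edgeR). At both genes each library labelled Dcaf1-deficient lay above both young libraries.

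Of the 10 centromere proteins 8 were higher without overlap, against 35.2% of all genes, and 1, Cenpq, was lower, against 36.9%. DESeq2 called 5 higher, against 6.87% of all genes. The estimates of the mitotic motor Cenpe and its partner Cenpf (1.88 and 1.99) stood beside those of the mitotic genes above. Cenpa, the histone that marks the centromere, had 76.9 and 71.6 CPM in Treg labelled Dcaf1-deficient, against 38.0 and 41.6 CPM in young Treg, with a log2 fold change of 0.90 (SE 0.19, adjusted p 0.131 by edgeR, DESeq2 adjusted p 9.29e-04). Its 2 groups were narrow and apart. Cenpc1, a constant part of the inner kinetochore, was at 46.5 and 46.9 CPM, inside the 43.4 to 49.0 CPM of young Treg, and its log2 fold change was 0.02 (SE 0.20). Other inner kinetochore genes lay higher: Cenpi was at 15.0 and 15.1 CPM, against 3.39 and 5.28 CPM in young Treg, and Cenph at 15.3 and 13.1 CPM, against 2.64 and 6.49 CPM. DESeq2 called Cenpi (adjusted p 0.0231) and not Cenph (0.0859). Cenpb, which binds centromeric repeats, was at 96.6 and 91.9 CPM, against 54.7 and 77.2 CPM in young Treg, and passed neither test. In the outer kinetochore, which grips the microtubule, Nuf2 was at 47.0 and 45.6 CPM, against 8.80 and 17.1 CPM in young Treg, Spc25 at 16.2 and 19.4, against 3.15 and 7.05 CPM, and Ska2 at 26.7 and 21.7, against 13.9 and 16.2 CPM. All 3 lay apart from young Treg, and DESeq2 called Nuf2 and Ska2.

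The spindle checkpoint genes and their target lay in the same direction. Bub1b was at 99.4 and 87.5 CPM in Treg labelled Dcaf1-deficient, against 19.3 and 35.9 CPM in young Treg (log2 fold change 1.76 ± 0.68 SE, adjusted p 0.174 by edgeR). For Bub1 the values were 40.6 and 35.5 CPM, against 4.14 and 13.5 CPM, and for Cdc20 61.4 and 48.4 CPM, against 9.37 and 20.8 CPM in young Treg. None of the 3 overlapped, and DESeq2 called Bub1b alone (adjusted p 0.0488).

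Mitotic kinesins and the cytokinesis genes lay apart as well. All 6 mitotic kinesins lay higher without overlap: Kif4, which compacts chromosomes and sets the spindle midzone, was at 44.9 and 41.1 CPM, against 5.51 and 12.4 CPM in young Treg (log2 fold change 2.26 ± 0.81 SE, adjusted p 0.161 by edgeR). Kif18a, which damps chromosome movements, differed by 1.09 (SE 0.29, DESeq2 adjusted p 0.00668). Kifc1, a minus-end motor that focuses spindle poles, had the smallest core estimate at 0.46, with 45.6 and 47.7 CPM, against 32.3 and 35.6 CPM in young Treg. DESeq2 called all 5 spindle and cytokinesis genes higher, against 6.87% of all genes. Prc1, which bundles midzone microtubules, was at 94.5 and 88.4 CPM, against 15.2 and 32.8 CPM in young Treg (log2 fold change 1.93 ± 0.52 SE, adjusted p 0.133 by edgeR, DESeq2 adjusted p 0.00574). Racgap1, of the centralspindlin complex, was at 129 and 109 CPM, against 31.1 and 47.7 CPM, and Tpx2, which nucleates spindle microtubules, at 102 and 92.4 CPM, against 10.6 and 29.8 CPM in young Treg.

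Outside mitosis the picture was mixed. Of the 14 transport and other kinesins 5 lay higher and 5 lower without overlap, against 35.2% and 36.9% of all genes. The median log2 fold change of the 14 was 0.11. Kif1a, a vesicle motor known from neurons, was at 8.23 and 6.72 CPM, against 0.330 and 2.16 CPM in young Treg (log2 fold change 2.57 ± 0.76 SE, adjusted p 0.138 by edgeR, DESeq2 adjusted p 0.0186). Kif21b, a motor that limits microtubule growth at the T cell synapse, was at 638 and 612 CPM, below the 1510 and 1043 CPM of young Treg. With a log2 fold change of -1.03 (SE 0.27, adjusted p 0.133 by edgeR, DESeq2 adjusted p 0.00631) it was the only member DESeq2 called lower. Kif2a, which depolymerises microtubules, was at 67.3 and 67.3 CPM, against 98.4 and 74.0 CPM in young Treg, and Kif5b, the main cargo motor of most cells, at 292 and 288 CPM, against 334 and 282 CPM. Kif2a did not overlap and Kif5b did. Among the 4 lowest estimates were also those of Kif7, a motor of Hedgehog signalling (-0.60), and Kif1b, a mitochondrial and vesicle motor (-0.29), which passed neither test.

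Of the 5 G1 cyclins 4 lay higher without overlap, against 35.2% of all genes. Ccne2, an E cyclin, was at 19.9 and 19.8 CPM, against 3.81 and 5.45 CPM in young Treg (log2 fold change 2.10 ± 0.66 SE, adjusted p 0.144 by edgeR, DESeq2 adjusted p 0.0226), and Ccne1, the other, had an estimate of 1.28. Among the D cyclins, which answer growth signals, Ccnd1 was at 23.8 and 35.5 CPM, against 2.73 and 16.2 CPM in young Treg (log2 fold change 1.64 ± 0.96 SE, adjusted p 0.297 by edgeR). Ccnd2 was at 590 and 549 CPM, against 774 and 566 CPM in young Treg, with overlap. Ccnd3 was at 259 and 249 CPM, against 204 and 180 CPM (log2 fold change 0.40 ± 0.25 SE, adjusted p 0.324 by edgeR), without overlap.

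Transcripts of red cell precursors, macrophages and neutrophil precursors moved with the core in this comparison, but not those of all other cells. B cell markers summed to 2161 and 2252 CPM in Treg labelled Dcaf1-deficient, against 79.7 and 2398 CPM in young Treg. Higher without overlap were 1 of 6 B cell, 1 of 4 plasma cell and 1 of 4 dendritic markers, against 35.2% of all genes. All 10 tested erythroid markers lay higher without overlap, and their summed level was 5402 and 12211 CPM in Treg labelled Dcaf1-deficient, against 27.7 and 1594 CPM in young Treg. All 9 macrophage markers summed to 11536 and 13765 CPM, against 131 and 3759.9 CPM, and all 7 neutrophil precursor markers to 277 and 546 CPM, against 0.283 and 44.7 CPM. The 9 T cell markers summed to 3482 and 3069 CPM, against 6746 and 4640.5 CPM in young Treg, and 0 of 9 had a positive log2 fold change. Young Treg 2, the higher young library for Cdk1, Ccnb1 and Ccna2, was also the higher for red cell and macrophage transcripts, and Mpo was at 0 in young Treg 1. The part of these cells in the result was not tested. Leaving out young Treg 2 gave a core median of 2.85, leaving out young Treg 1 gave 1.498, and all 4 libraries of the comparison carry the tag L4.

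**Figure D2:**
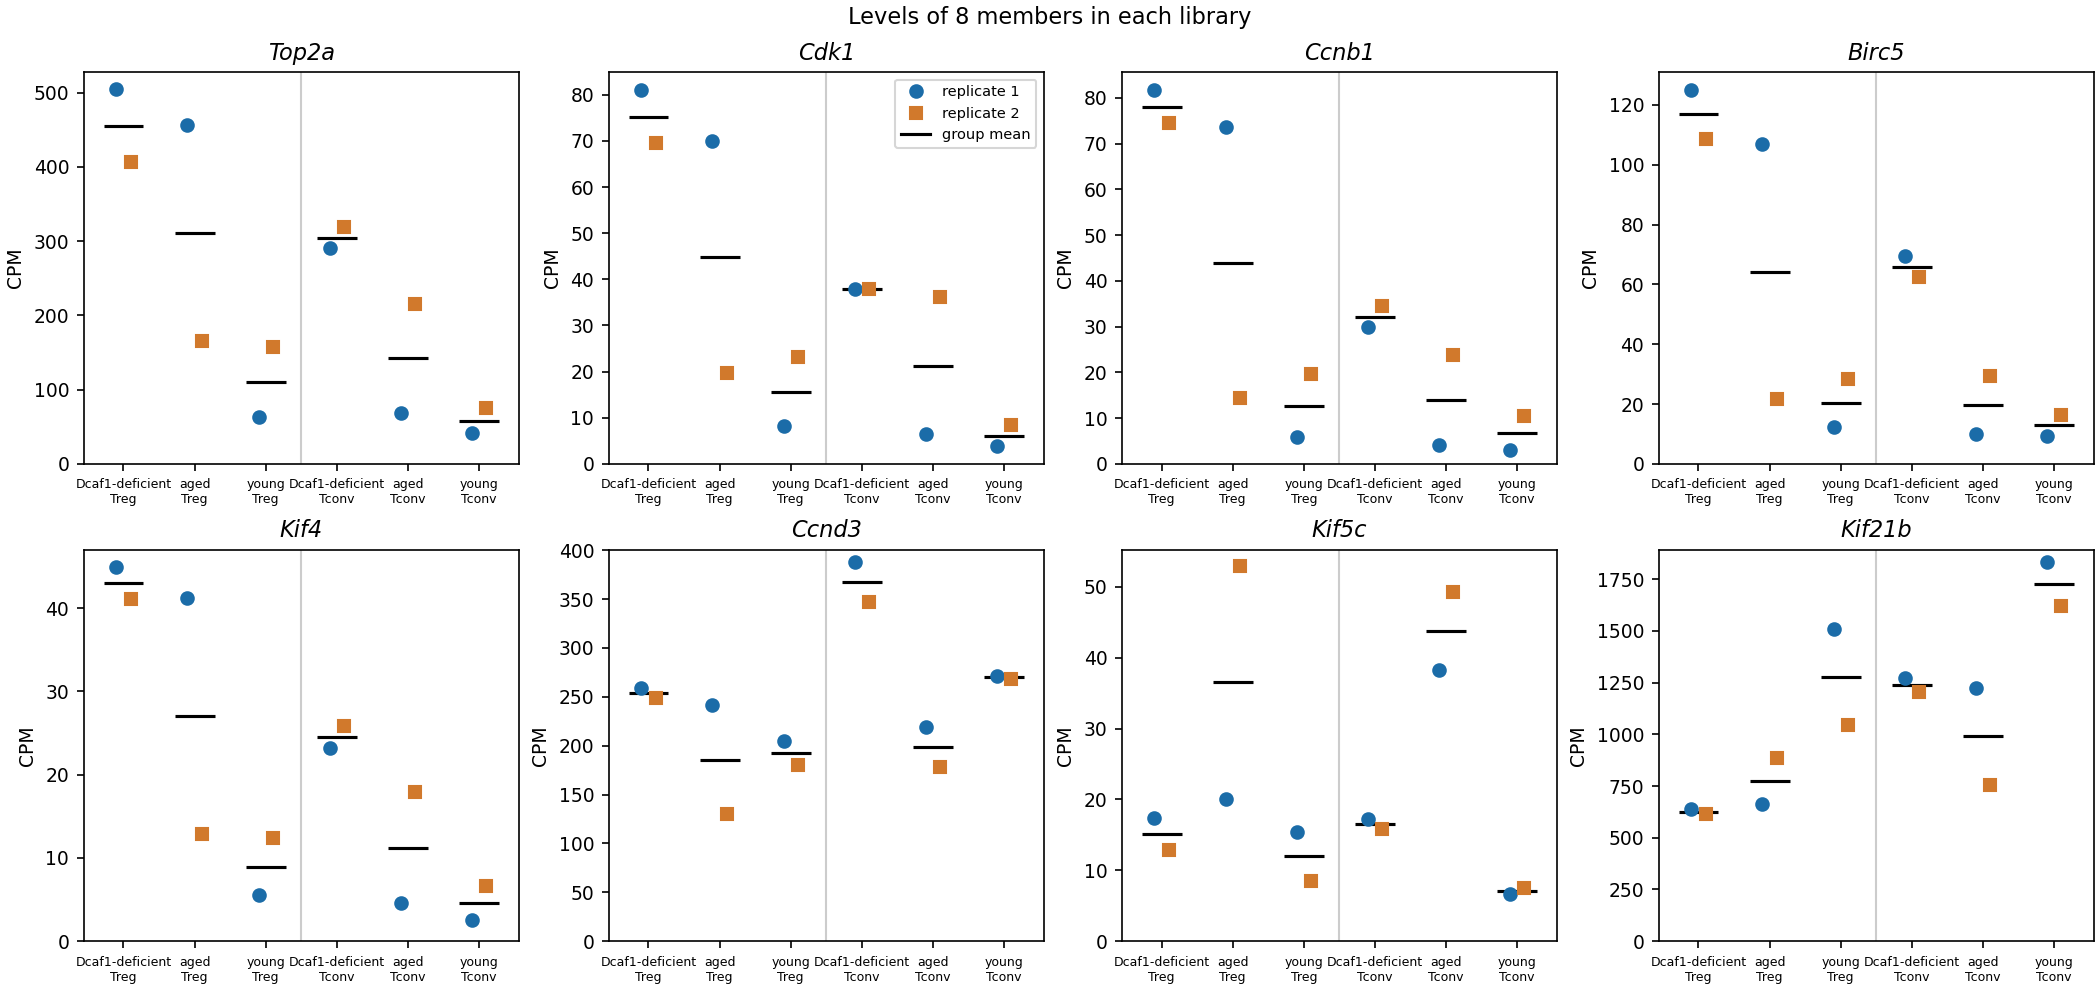
CPM (y axes, from 0) of 8 members in the 12 libraries by group (x axis; circles replicate 1, squares replicate 2, bars the group mean of 2 libraries). Top2a, Cdk1, Ccnb1, Birc5 and Kif4 share 1 pattern, high in the libraries labelled Dcaf1-deficient and in aged Treg 1, whereas Ccnd3, Kif5c and Kif21b follow others.

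In Tconv labelled Dcaf1-deficient against young Tconv, the core again lay higher. EdgeR called 0 of the 56 members and 0 of all genes (0%); 27 members had an unadjusted p under 0.05, against 10% of all genes, and limma called 0. DESeq2 called 6 members higher, against 1.7% of all genes, and 0 lower, against 0.839%: Racgap1, Top2a, Nusap1, Cenpi, Prc1 and Ccna2. In all 23 core members both libraries labelled Dcaf1-deficient lay above both young ones, as they did in 42 of the 56 members and in 34.2% of all genes. The core median was 2.28, and it was 1.75 without young Tconv 1, where the 3 libraries left in the comparison share the tag L5, and 2.89 without young Tconv 2. Xist was at 1321 and 1339 CPM in Tconv labelled Dcaf1-deficient, against 2.39 and 2.64 CPM in young Tconv. Condition and sex therefore cannot be told apart within these libraries.

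The core mean in these Tconv was below that of Treg labelled Dcaf1-deficient. Top2a was at 290.5 and 319 CPM in Tconv labelled Dcaf1-deficient, against 41.0 and 75.7 CPM in young Tconv (log2 fold change 2.38 ± 0.71 SE, adjusted p 0.421 by edgeR, DESeq2 adjusted p 0.0167). Racgap1 was at 115 and 113 CPM, against 31.3 and 35.8 CPM, with a log2 fold change of 1.77 (SE 0.44, adjusted p 0.345 by edgeR, DESeq2 adjusted p 0.00821). Cdk1 was at 38.0 and 37.8 CPM, against 3.80 and 8.36 CPM in young Tconv, and Birc5 at 69.4 and 62.5 CPM, against 9.43 and 16.3 CPM. The libraries labelled Dcaf1-deficient lay close to each other at these genes and well apart from the young. Cenpa was at 58.1 and 57.9 CPM, against 38.0 and 35.8 CPM in young Tconv.

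The members outside the core again varied. Kif21b was at 1272 and 1204 CPM in Tconv labelled Dcaf1-deficient, against 1832 and 1620.4 CPM in young Tconv (log2 fold change -0.48, SE 0.26), the same direction as in Treg. Ccnd3 was at 388 and 347 CPM, against 271 and 268 CPM, and Ccnd1, another D cyclin, at 144 and 145 CPM, against 28.96 and 97.5 CPM in young Tconv. Neither D cyclin overlapped, and neither passed edgeR or DESeq2. Erythroid markers summed to 1525 and 1519.8 CPM in Tconv labelled Dcaf1-deficient, against 13.9 and 122.9 CPM in young Tconv, macrophage markers to 955 and 1023 CPM, against 18.7 and 248 CPM, and neutrophil precursor markers to 46.6 and 50.7 CPM, against 0.188 and 2.92 CPM. All tested markers of these 3 lists lay higher without overlap, the T cell markers summed to 7847 and 7774 CPM, against 7859 and 7364 CPM, and the part of other cells in the result was not tested.

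A contrast added after the values were seen averaged the Dcaf1-deficient effect over Treg and Tconv, so that 4 libraries stood against 4. EdgeR then called 1 member, Cenpa, which rose by 0.78 on the log2 scale (SE 0.13, adjusted p 0.0488 by edgeR), against 0.548% of all genes called higher. That call was lost without the low-count filter, with the replicate block and with terms for tag or sex, at adjusted p of 0.0501 to 0.181. DESeq2 called 32 members higher and 1 lower, against 11.5% and 10.8% of all genes, among them 22 of the 23 core members. Racgap1 (log2 fold change 1.68, edgeR adjusted p 0.0515), Kif18a (1.05, 0.0531) and Prc1 (1.84, 0.0547) lay just beyond the edgeR threshold. The core median was 2.16. With 1 library left out it ran from 1.88 without young Treg 1 to 2.61 without young Treg 2. The call of Cenpa was also lost without young Treg 1, either young Tconv library or any library labelled Dcaf1-deficient. The number of members called varied with the library left out, and the cause was not tested. The difference of the effect between Treg and Tconv was called for 0 members and 0 genes by edgeR (0%), with 0 members at an unadjusted p under 0.05, for 0 members by DESeq2 and for 0 by limma.

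**Figure D3:**
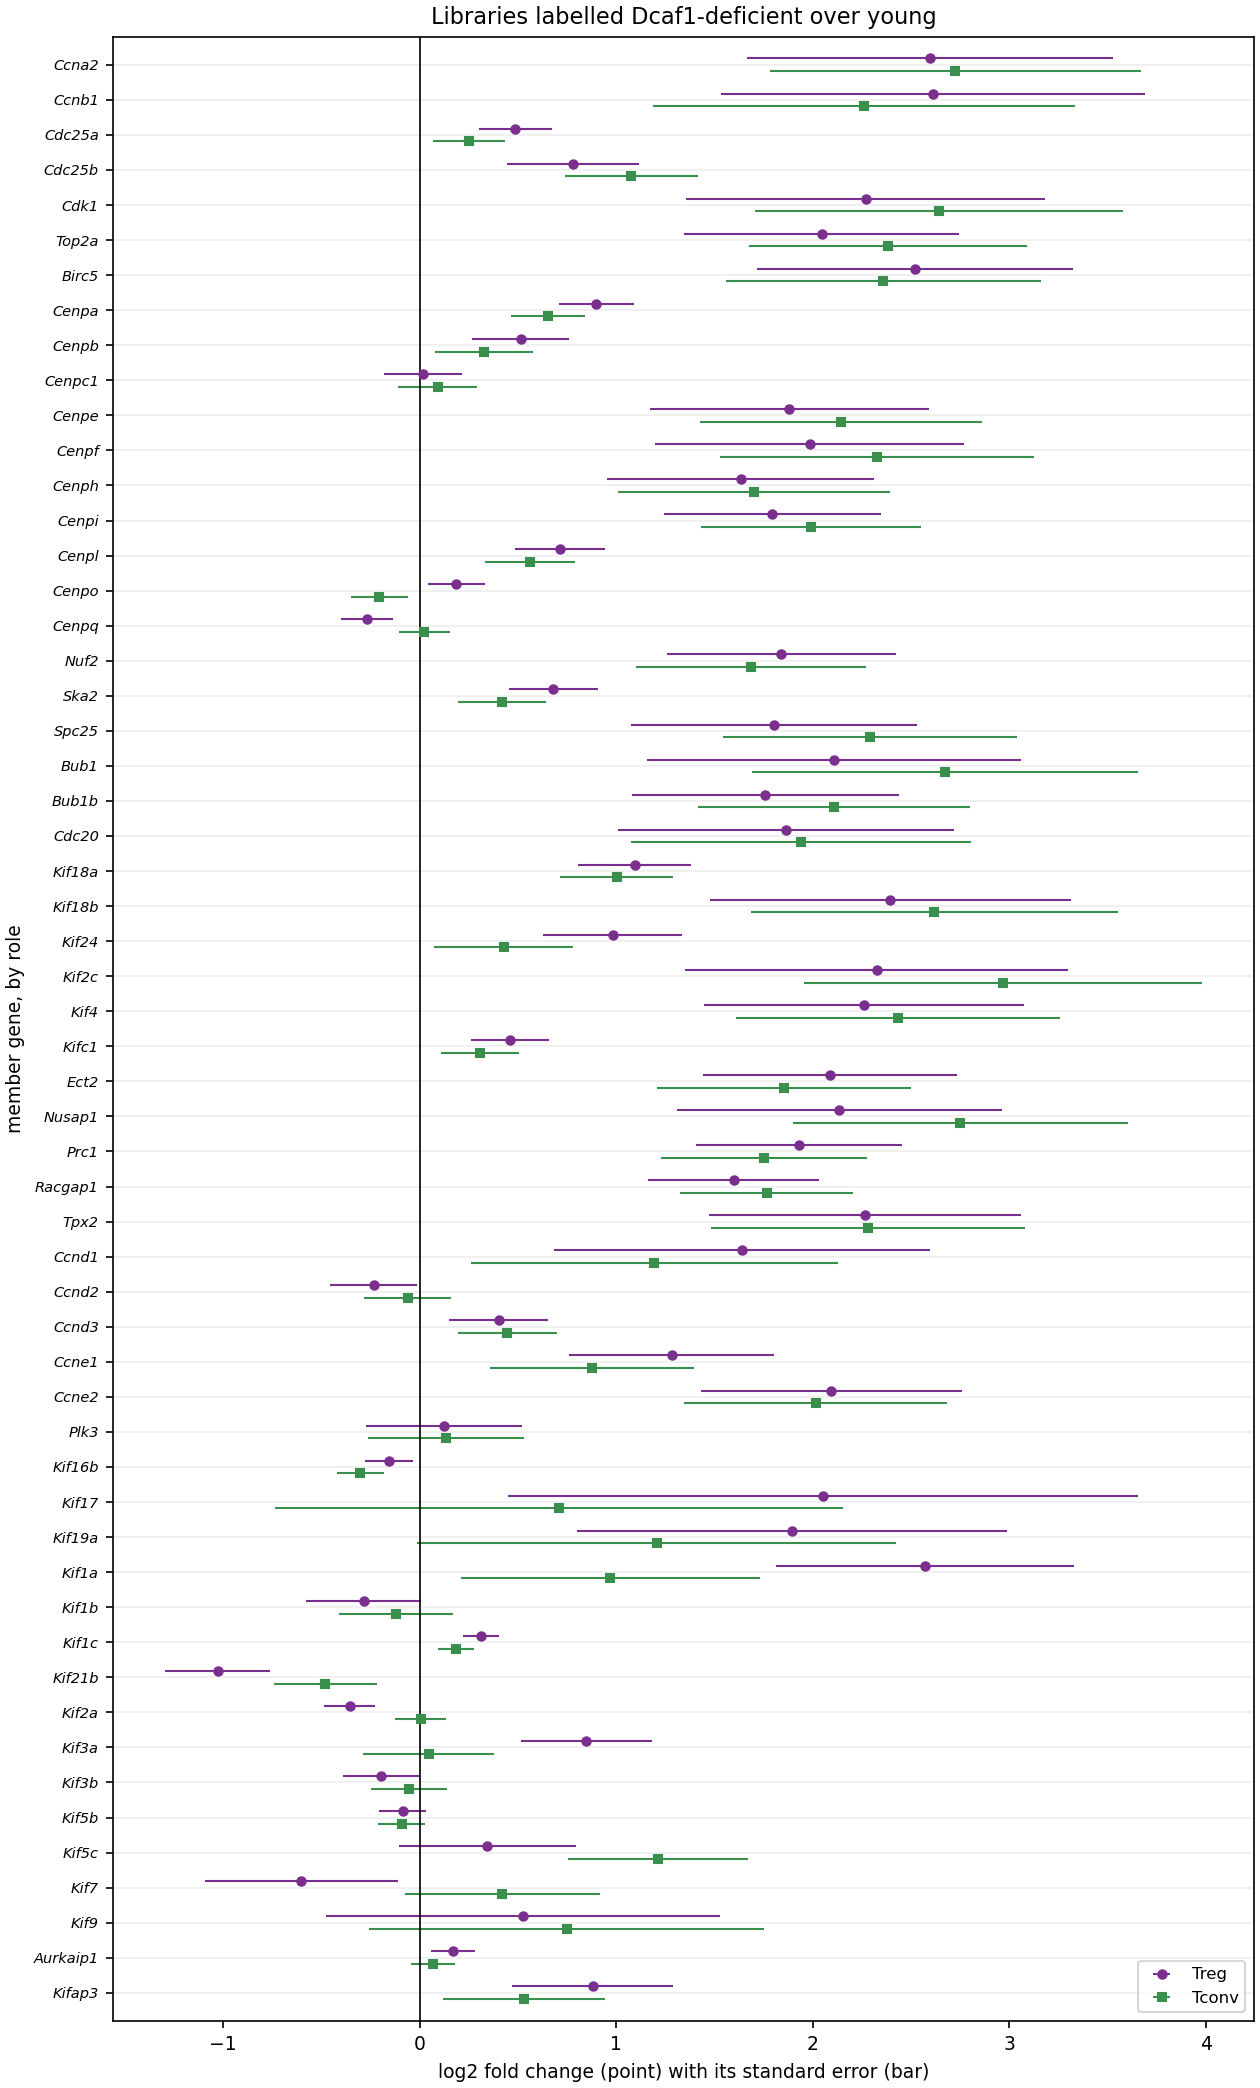
Log2 fold change of libraries labelled Dcaf1-deficient over young libraries (x axis; points with their standard errors from the edgeR fit) for the 56 members ordered by role (y axis), in Treg (circles) and Tconv (squares). The core members lie right of 0 in both cell types, with medians of 2.05 in Treg and 2.28 in Tconv, while the transport kinesins lie on both sides of 0, with medians of 0.11 in each.

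Aged Treg were compared with young Treg for the effect of age. EdgeR called 0 members and 0 genes (0%), with 12 members and 17.9% of all genes at an unadjusted p under 0.05, and limma called 0 members. DESeq2 called 5 members higher, against 4.68% of all genes, and 0 lower, against 3.23%: Cenpa, Kif18a, Kif5c, Plk3 and Prc1. The core median was 1.38, but the aged libraries differed widely. Cdk1 was at 70.0 and 19.6 CPM in aged Treg, against 8.15 and 23.1 CPM in young Treg, and Top2a at 457 and 165 CPM, against 63.5 and 157 CPM. Aged Treg 1, whose label could not be checked, lay with the libraries labelled Dcaf1-deficient and aged Treg 2 with young Treg 2. Without aged Treg 1 the core median was 0.30, without aged Treg 2 it was 1.94, without young Treg 1 0.89 and without young Treg 2 2.21. Erythroid markers followed the same libraries, summing to 4589 and 155 CPM in aged Treg, against 27.7 and 1594 CPM in young Treg, and macrophage markers to 9718 and 605 CPM, against 131 and 3759.9 CPM. Their part in the result was not tested.

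A few members differed in both aged Treg libraries. Cenpa was at 71.8 and 63.4 CPM in aged Treg, against 38.0 and 41.6 CPM in young Treg (log2 fold change 0.76 ± 0.19 SE, adjusted p 0.151 by edgeR, DESeq2 adjusted p 0.00848). Kif18a was at 16.0 and 14.8 CPM, against 6.03 and 8.44 CPM, and Kif5c, a cargo motor best known from neurons, at 20.1 and 53.0 CPM, against 15.4 and 8.53 CPM in young Treg. At these 3 genes the groups did not overlap, as in 18 members in all that lay higher, against 20.2% of all genes, and in 4 that lay lower, against 22.4%. Plk3, a kinase of stress responses and not of mitosis proper, was at 77.2 and 219 CPM, against 65.8 and 56.1 CPM in young Treg, highest in the aged library with the lower mitotic genes. That library, aged Treg 2, alone of those compared carries the tag L3 and held Xist above 100 CPM, at 2018 CPM. Tag, sex and replicate therefore cannot be told apart in aged Treg.

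In aged against young Tconv edgeR called 3 of 56 members, all higher, against 6.38% of all genes higher and 2.47% lower (8.86% in all), and 16 members had an unadjusted p under 0.05, against 28.1%. Kif5c was at 38.2 and 49.3 CPM in aged Tconv, against 6.66 and 7.54 CPM in young Tconv, and rose by 2.62 on the log2 scale (SE 0.48, adjusted p 0.0242 by edgeR). Kif1c, which carries vesicles, was at 134 and 153 CPM, against 102 and 104 CPM, and rose by 0.48 (SE 0.09, adjusted p 0.026 by edgeR). Cdc25b was at 227 and 339 CPM, against 119 and 102 CPM in young Tconv, and rose by 1.36 (SE 0.34, adjusted p 0.0482 by edgeR). That call was lost with RLE scaling (adjusted p 0.05225), without the low-count filter (0.05775), with the replicate block (0.0554) and with a term for sex (0.0811). The calls of Kif5c and Kif1c were lost with a term for the tag (0.0508 and 0.0734) and with one for sex (0.0505 and 0.0586). None of the 3 is in the mitotic core, and in each both aged libraries lay above both young ones. The calls were thin, and all were lost when either young Tconv library, aged Tconv 2 or either Tconv library labelled Dcaf1-deficient was left out. Their number also varied with the other libraries left out. DESeq2 called 8 higher and 3 lower, against 12.9% and 8.58% of all genes.

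Most of the mitotic core overlapped between aged and young Tconv. Its median log2 fold change was 1.23, and aged Tconv 2 decided it, the median being 0.07 without that library and 1.83 without aged Tconv 1. Cdk1 was at 6.39 and 36.2 CPM in aged Tconv, against 3.80 and 8.36 CPM in young Tconv, and Ccnb1 at 4.05 and 23.9 CPM, against 3.05 and 10.4 CPM. In each, aged Tconv 1 lay between the 2 young libraries and aged Tconv 2 above them. Cenpa, Prc1 and Racgap1 were the 3 of 23 core members that lay higher without overlap, against 29.9% of all genes. Kifc1 was lower, at 24.1 and 24.4 CPM in aged Tconv, against 36.6 and 43.0 CPM in young Tconv, a log2 fold change of -0.72 (SE 0.20, adjusted p 0.0612 by edgeR, DESeq2 adjusted p 0.0125). Markers of other cells did not all follow aged Tconv 2, the library with a core mean of 4.91: erythroid markers summed to 164 CPM in aged Tconv 1 and 32.2 CPM in aged Tconv 2, against 13.9 and 122.9 CPM in young Tconv, and macrophage markers to 74.2 and 76.6 CPM, against 18.7 and 248 CPM. Of the 9 macrophage markers 1 had a positive log2 fold change, and Hmox1 alone was at 29.9 and 59.5 CPM in aged Tconv. B cell markers summed to 197 and 370 CPM, against 38.2 and 182 CPM, but Cd22 alone was at 161 and 356 CPM in aged Tconv. Only 1 of 6 B cell markers had a positive log2 fold change. Cd79a was at 13.3 and 4.90 CPM in aged Tconv, against 5.26 and 43.3 CPM in young Tconv. Neutrophil precursor markers summed to 2.94 and 5.70 CPM, against 0.188 and 2.92 CPM in young Tconv, highest of these 4 libraries in aged Tconv 2. Treg markers summed to 2354 and 3511 CPM in aged Tconv, against 427 and 508 CPM in young Tconv, with 5 of 6 higher without overlap. The part of these cells in the result was not tested. Aged Tconv 2 alone of the Tconv libraries carries the tag L3, and it is the only 1 of these 4 with Xist above 100 CPM, so tag, sex and replicate cannot be told apart. Within the tag L5, aged Tconv 1 had a core mean of 3.28 and young Tconv 2 of 3.63.

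Further members outside the core differed with age in Tconv without reaching the edgeR threshold. Kif7 was at 6.39 and 13.5 CPM in aged Tconv, against 2.86 and 2.75 CPM in young Tconv (log2 fold change 1.82 ± 0.51 SE, adjusted p 0.062 by edgeR). Kif3a, the cilium and cargo motor, was at 17.9 and 40.4 CPM, against 13.3 and 12.8 CPM, and its partner Kifap3 at 9.44 and 23.5 CPM, against 5.07 and 6.00 CPM. Plk3 was at 192 and 196 CPM, against 87.8 and 69.1 CPM in young Tconv (log2 fold change 1.31 ± 0.40 SE, adjusted p 0.0791 by edgeR). At these genes both aged libraries lay above both young ones and DESeq2 called each. Kif19a, a cilium motor with few counts, had the estimate second to Kif5c, 1.97 (SE 1.21). Besides Kif21b the lowest estimates were those of other low or variable genes, Kif17 (-0.99), Kif1a (-0.86) and Ccnd1 (-0.76), none of them past either test. Kif21b was lower, at 1225 and 756 CPM in aged Tconv, against 1832 and 1620.4 CPM in young Tconv (log2 fold change -0.80 ± 0.27 SE, adjusted p 0.0958 by edgeR). Of all 56 members 17 lay higher without overlap, against 29.9% of all genes, and 8 lower, against 29.1%. The difference of the age effect between Treg and Tconv was called for 0 members and 0 genes by edgeR (0%), with 1 member at an unadjusted p under 0.05, for 0 members by DESeq2 and for 0 by limma.

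**Figure D4:**
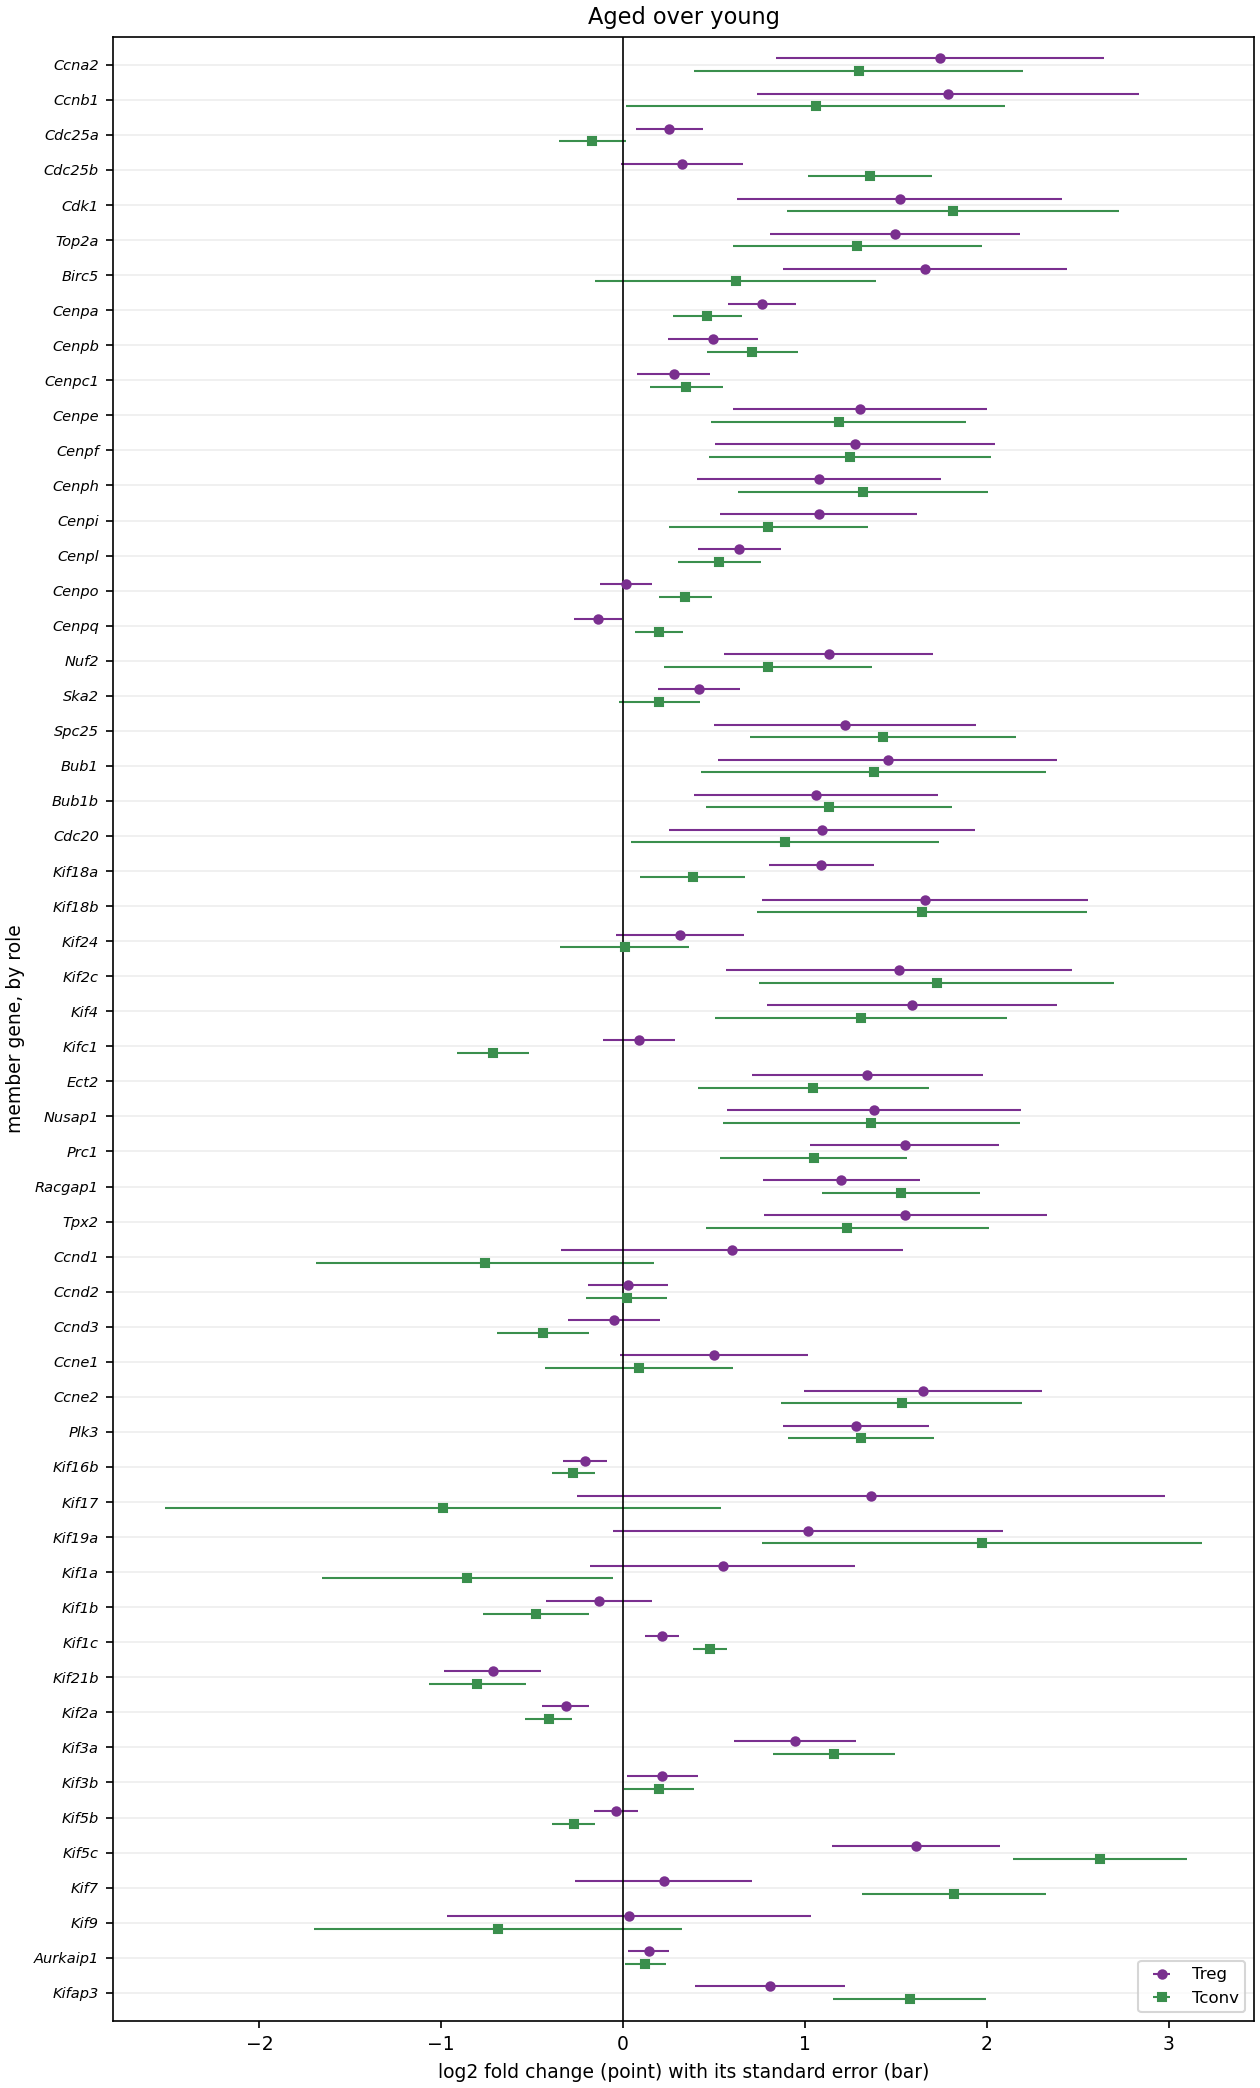
Log2 fold change of aged over young libraries (x axis; points with their standard errors from the edgeR fit) for the 56 members ordered by role (y axis), in Treg (circles) and Tconv (squares). Error bars of the core members are wide, its medians being 1.38 in Treg and 1.23 in Tconv, and Kif5c, Kif1c and Cdc25b are the members called by edgeR in Tconv.

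Treg were set against Tconv within each condition and averaged over the 3 conditions. The averaged contrast called 7 members, 3 higher in Treg, against 11.5% of all genes, and 4 lower, against 11%. DESeq2 called 14 higher and 5 lower, against 19.1% and 14.8% of all genes. The edgeR calls are kinesins, a D cyclin and a centromere protein. Of the 23 core members edgeR called 0, with 5 at an unadjusted p under 0.05, against 39.2% of all genes. DESeq2 called 8 of the core, all higher, against 19.1% of all genes. Kif2a fell by 0.38 (SE 0.07, adjusted p 0.0151 by edgeR), Kif21b by 0.59 (adjusted p 0.0313) and Kif1b by 0.65 (adjusted p 0.0325). Kif1a rose by 1.96 (SE 0.44, adjusted p 0.0216 by edgeR), Kif19a by 2.94 (SE 0.68, adjusted p 0.0231) and Cenpo, of the inner kinetochore, by 0.28 (adjusted p 0.0464). These calls were lost with a term for the tag (0 called). The estimates were then 2.01 for Kif1a, 2.48 for Kif19a, -0.34 for Kif2a, -0.42 for Kif21b and Kif1b, 0.18 for Cenpo and -1.13 for Ccnd1. All 7 calls were also lost without any 1 of the 4 libraries labelled Dcaf1-deficient or without young Tconv 1. Their number varied with the other libraries left out.

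Ccnd1 had the lowest of these estimates. It was at 23.8 and 35.5 CPM in Treg labelled Dcaf1-deficient and 144 and 145 CPM in Tconv labelled Dcaf1-deficient, at 20.7 and 8.05 CPM in aged Treg and 58.0 and 16.6 CPM in aged Tconv, and at 2.73 and 16.2 CPM in young Treg, against 28.96 and 97.5 CPM in young Tconv. Averaged over the conditions it fell by 2.13 in Treg (SE 0.56, adjusted p 0.0325 by edgeR), and only the aged groups overlapped. Siglech, a marker of plasmacytoid dendritic cells, ran alongside in Tconv, at 217 and 223 CPM in those labelled Dcaf1-deficient, 24.8 and 8.84 CPM in the aged and 58.2 and 155 CPM in the young, and its part in the Ccnd1 values was not tested. Kif19a was at 7.28 and 10.1 CPM in Treg and 0.781 and 0.530 CPM in Tconv among libraries labelled Dcaf1-deficient, but at 0.188 CPM in young Treg 1 and 4.46 CPM in young Treg 2. Without young Treg 2 its averaged log2 fold change was 1.77.

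Within single conditions fewer members differed. Between Treg and Tconv labelled Dcaf1-deficient, Kif2a was the only member called by edgeR, against 1.35% of all genes called lower and 0.874% higher (2.22% in all): it was at 67.3 and 67.3 CPM in Treg and 104 and 107 CPM in Tconv and fell by 0.65 (SE 0.13, adjusted p 0.0499 by edgeR). That call was lost without either young Tconv library (adjusted p 0.116 and 0.102) and without any of the 4 libraries compared (0.28 to 0.318), and also with RLE scaling, without the low-count filter, with the replicate block and with terms for sex or tag (0.0524 to 0.369). DESeq2 called 3 members higher and 3 lower, against 7.88% and 7.71% of all genes. The core lay higher in Treg for 21 of 23 genes without overlap, against 39.5% of all genes, with a median of 0.72. The Treg libraries here carry the tag L4 and the Tconv libraries L5, and with a term for the tag that median was 0.23, with 18 core estimates above 0 and 5 below. In young libraries edgeR called 0 of 56 members, against 0.8% of all genes, with 5 members at an unadjusted p under 0.05, against 14.3%. Limma called 0, and DESeq2 called 1 lower, Ccnd1, against 3.01%, and 0 higher, against 4.11%. Both Treg libraries lay above both Tconv libraries in 11 members, against 24.4% of all genes, and below in 14, against 24.9%. The aged libraries also gave 0 edgeR calls, against 0.295% of all genes higher and 0.527% lower (0.821% in all), with 5 members at an unadjusted p under 0.05, against 18.9%. Limma called 0, and DESeq2 called Kif18a higher, against 5.75%, and Cdc25b and Kif1c lower, against 4.48%. Of the members 6 lay higher without overlap, against 15.7%, and 4 lower, against 18.5%. The core median was 0.93 in the young, but 0.06 without young Treg 2, and 1.07 in the aged, but 0.06 without aged Treg 1. Summed macrophage and erythroid markers were also higher in Treg than in Tconv labelled Dcaf1-deficient. Both sums overlapped in the young libraries, and the erythroid sum also in the aged. Markers of dendritic cells went the other way, summing to 35.7 and 52.7 CPM in Treg and 338 and 349 CPM in Tconv labelled Dcaf1-deficient. Macrophage markers summed to 11536 and 13765 CPM in Treg and 955 and 1023 CPM in Tconv labelled Dcaf1-deficient, to 9718 and 605 CPM in aged Treg and 74.2 and 76.6 CPM in aged Tconv, and to 131 and 3759.9 CPM in young Treg, against 18.7 and 248 CPM in young Tconv. Erythroid markers summed to 5402 and 12211 CPM in Treg and 1525 and 1519.8 CPM in Tconv labelled Dcaf1-deficient. They summed to 4589 and 155 CPM in aged Treg and 164 and 32.2 CPM in aged Tconv, and to 27.7 and 1594 CPM in young Treg, against 13.9 and 122.9 CPM in young Tconv. Their part in the core differences was not tested.

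The heat map of all members shows how tightly the core moved as a block. With each gene set against the mean of the other core genes over the 12 libraries, Pearson r was lowest for Kifc1 (0.529), Racgap1 (0.885), Cenpa (0.903) and Kif18a (0.923), and lay between 0.968 for Prc1 and 0.998 for Ccna2 in the rest. These are descriptions over libraries that share cell sources and groups. Among members outside the core, Cenpi (0.985), Cenph (0.949) and Ccne2 (0.940) were closest to it and Kif21b (-0.828) farthest. The 10 genes outside the name list most like the core mean were Ckap2l (0.997), Ncaph, Cit, Rrm2, Foxm1, E2f8, Spag5, Cdca8, Mad2l1 and E2f7 (0.991). Foxm1, an activator of mitotic promoters, was at 64.7 and 51.2 CPM in Treg labelled Dcaf1-deficient, against 13.1 and 23.7 CPM in young Treg.

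**Figure D5:**
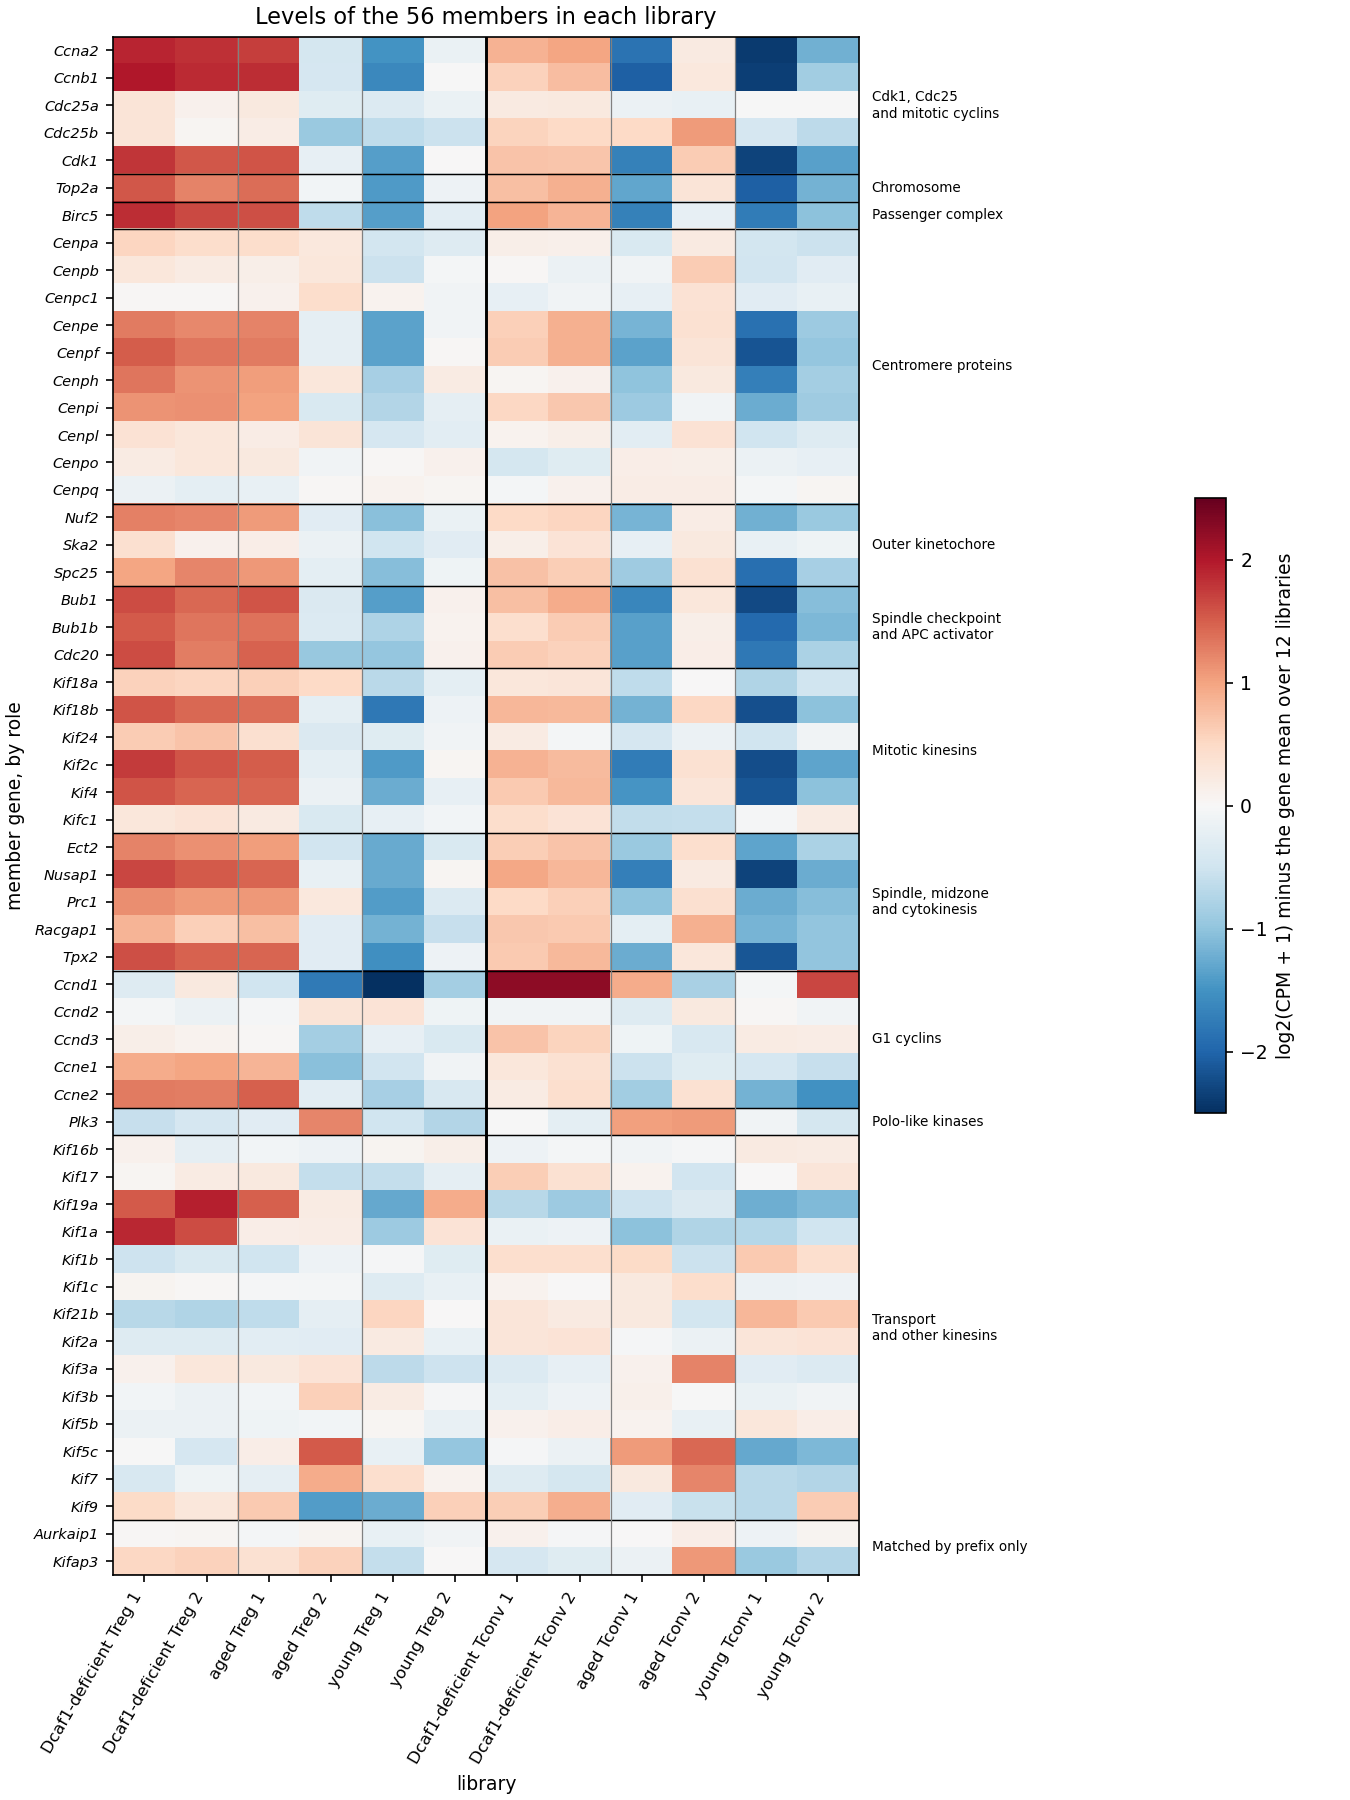
Each of the 56 members (rows, grouped by role) in each of the 12 libraries (columns), coloured by log2(CPM + 1) minus the gene's mean over the libraries. Most core mitotic rows are red in the 4 libraries labelled Dcaf1-deficient and in aged Treg 1, blue in young Treg 1, both young Tconv and aged Tconv 1, and pale in young Treg 2, while transport kinesin rows share no pattern.

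Other genes of the pathway were read from lists by role. Of the 12 regulators of the mitotic programme DESeq2 called 2 higher in Treg labelled Dcaf1-deficient against young Treg, where it called 6.87% of all genes higher. They are Foxm1 (log2 fold change 1.66, DESeq2 adjusted p 0.0239) and E2f7, while the estimates of Rb1, Lin9 and Lin54 were -0.09, -0.06 and 0.02. The list's median was 0.52. The 15 tested genes of the anaphase-promoting complex had a median of -0.08: its subunits, such as Anapc1 at 272 and 274 CPM, against 301 and 281 CPM in young Treg, sat apart from the mitotic enzyme Ube2c at 57.4 and 59.9 CPM, against 7.35 and 16.1 CPM (log2 fold change 2.32, DESeq2 adjusted p 0.00947). EdgeR called 0 genes of these lists in this comparison.

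DESeq2 called 4 of 12 checkpoint genes higher, Kntc1, Mad2l1, Nsl1 and Zwilch, and 5 of 6 replication licensing genes, against 6.87% of all genes. The medians of these lists were 0.94 and 1.19. Of 13 condensin and cohesin genes it called 6 higher and 2 lower, against 6.87% and 6.95% of all genes. The condensin subunits Smc2 and Ncaph were higher by 1.08 and 1.76, whereas Smc4, which pairs with Smc2, was at 588 and 613 CPM in Treg labelled Dcaf1-deficient, against 1906 and 1094 CPM in young Treg (log2 fold change -1.32, SE 0.24, DESeq2 adjusted p 3.19e-05). The inhibitor of the cycle Cdkn1a (p21) was high beside the mitotic genes, at 62.3 and 46.0 CPM, against 1.27 and 5.71 CPM in young Treg (log2 fold change 3.95 ± 0.89 SE, adjusted p 0.131 by edgeR). Cdkn2a, which holds p16 and p19, was at 10.2 and 5.92 CPM, against 0 and 0.606 CPM in young Treg. Cdkn1b (p27), an inhibitor of resting cells, was at 146 and 161 CPM, against 294 and 194 CPM.

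In aged against young Tconv, edgeR called 5 of the 65 genes of these lists higher (7.69%), near the 6.38% of all genes, and 1 lower (1.54%), against 2.47%. They are the kinase Cdk6, the inhibitors Cdkn1a and Cdkn2c, the kinetochore gene Zwint and the helicase subunit Mcm6, and the cohesin subunit Stag2, which fell by 0.41 (SE 0.10, adjusted p 0.0467 by edgeR). Cdk6 was at 30.3 and 103 CPM in aged Tconv, against 11.03 and 11.4 CPM in young Tconv, and Mcm6 at 274 and 538 CPM, against 158 and 159 CPM. In both the aged libraries lay above the young, and aged Tconv 2 was the higher.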

How the data were processed

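RNA-seq of total RNA, made into poly(A)-selected libraries per the labels' protocols, gave 12 libraries in 6 groups read from the titles. The authors deposited estimated counts per gene, made with Salmon 0.9.1 and mm10 per the submitters' processing notes, and a second table of log2 values scaled by DESeq2, whose exact transform is not given in the sources used here.

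Rounded estimated counts entered the quasi-likelihood test of edgeR 4.0.16 (R 4.3.3), in 1 fit of 6 group means (6 residual degrees of freedom), with TMM scaling, filterByExpr and Benjamini-Hochberg adjustment over 9495 genes at a threshold of 0.05. Log2 CPM used a prior count of 2. DESeq2 1.42.0, limma 3.58.1 on the deposited log2 values, RLE scaling, no low-count filter, a minimum log2 fold change of 1, a tag term, a replicate block, 1 cell type alone and each library left out were alternatives. The fits were tested on data simulated for Treg labelled Dcaf1-deficient against young Treg. DESeq2 made 31 false calls there and edgeR 5. Of 50 genes changed by 1 on the log2 scale DESeq2 recovered 13 and edgeR 8, and of 50 changed by 2 they recovered 41 and 37. In the real comparison edgeR called 0 of 9495 genes at a core median of 2.05. The simulated rates therefore cannot be carried over to it, and they do not show which of its calls are false.

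Members, roles and lists were chosen with earlier results of these data known. Named were 11 set genes where present, the 3 members of highest mean per role, called members, the 4 highest and 4 lowest estimates in 2 comparisons and the 10 genes most like the core. Other members were named after their values were seen.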

Additional observations from a re-analysis of the deposited data

Results flagged for a closer look

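In 3 members every library of Treg lay on the opposite side of its young libraries from Tconv. For Cenpo the effect in libraries labelled Dcaf1-deficient differed between Treg and Tconv by 0.39 on the log2 scale, being 0.18 in Treg and -0.20 in Tconv. For Kif7 that difference was -1.02, from -0.60 in Treg and 0.42 in Tconv. For Cenpq the effect of age differed by -0.34, being -0.14 in Treg and 0.20 in Tconv. The edgeR test of the difference called none of them, with adjusted p of 1 for Cenpo, 1 for Kif7 and 0.868 for Cenpq.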

How the results depend on the processing

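The core median kept its sign in all comparisons and alternatives except the 2 differences of effects between Treg and Tconv, where leaving out 1 library gave -0.87 to 1.25 for age and -0.85 to 0.56 for Dcaf1 deficiency. Leaving out 1 library gave core medians of 1.498 to 2.85 (Treg labelled Dcaf1-deficient against young), 1.75 to 2.89 (the same in Tconv), 1.88 to 2.61 (both averaged), 0.30 to 2.21 (aged against young Treg), 0.0738 to 1.83 (aged against young Tconv), 0.0578 to 1.64 (young Treg against Tconv), 0.0622 to 2.17 (aged Treg against Tconv), 0.67 to 0.81 (Treg against Tconv labelled Dcaf1-deficient) and 0.56 to 1.27 (Treg against Tconv averaged). In the same order the members called were 0 to 2, 0 to 0, 0 to 31, 0 to 2, 0 to 15, 0 to 0, 0 to 3, 0 to 4 and 0 to 20, and 0 to 0 for both differences of effects.

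In the order of the core medians above, DESeq2 called 25, 6, 33, 5, 11, 1, 3, 6 and 19 members. Over all genes it called 1185, 227, 2038, 722, 2043, 663, 971, 1452 and 3210. For the average of the Dcaf1-deficient effects, 1 call in edgeR (88 over all genes), RLE scaling gave 2 (133) and limma 13 (401). Dropping the filter, adding the tag or sex term or asking for a minimum fold change gave 0. For Treg against Tconv labelled Dcaf1-deficient limma gave 3 (385 over all genes), and RLE scaling, no filter, the tag term, the sex term and the fold change minimum gave 0. The tag term left 1 member (437 over all genes) and the sex term 0 (303) in aged against young Tconv. Treg against Tconv averaged had 0 with the tag term (223 over all genes) and 3 with the fold change minimum (901). Terms for sex, and leaving out both aged Treg 1 and young Treg 2, were chosen after seeing the data. Without those 2 libraries members called were 20 and the core median 2.84 in Treg labelled Dcaf1-deficient against young Treg, with 42 called in the average, 3 in aged against young Treg, 9 in aged against young Tconv, 1 in aged Treg against Tconv and 7 in Treg against Tconv labelled Dcaf1-deficient, and core medians of 0.0376 and 0.0527 in young and aged Treg against Tconv. The cause of these shifts was not tested.

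Without aged Treg 1 the age estimate of Cdc20 in Treg was -0.68, the lowest of a range up to 1.86 over single libraries left out. Without aged Tconv 2 those of Ccnb1, Birc5 and Cdc20 in Tconv were -0.72, -0.38 and -0.15, of ranges up to 2.19, 1.20 and 1.56. Kif5c in aged Tconv had an adjusted p of 0.0508 with the tag term and 0.0505 with the sex term, Kif1c 0.0734 and 0.0586, and Cdc25b 0.0491 and 0.0811. Cdc25b had 0.05225 with RLE scaling and 0.05775 without the filter.

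Same-numbered libraries of 15 pairs of groups had correlations of -0.656 to 0.677, of which 4 were over 0.1. Only Treg and Tconv of the same condition could share mice. For these the correlation was 0.677 between young libraries, 0.271 between aged ones and 0.0414 between those labelled Dcaf1-deficient. Xist matched by number between aged Treg and aged Tconv. It did not for replicate 1 labelled Dcaf1-deficient, at 1.37 CPM in Treg and 1321 CPM in Tconv. The correlations cannot decide whether the numbers pair samples, since most pairs join different conditions. The main fit left pairing out. With the replicate block the call of Cenpa in the average (0 called) and that of Kif2a between cell types labelled Dcaf1-deficient (0 called) were lost, at adjusted p of 0.0555 and 0.0579; the calls of Cdc25b in aged against young Tconv (0.0554) and of Cenpo in Treg against Tconv averaged (0.0632) were lost too, although the counts there were again 3 and 7. Each of the 6 groups has 2 libraries, which limits the precision of every estimate.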
